A study of Mus musculus with 9 samples.

Results

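Coagulation and fibrinolysis factors are the plasma and vessel-wall proteins that build, limit and dissolve the fibrin clot. The set held 31 genes chosen by symbol from the deposited liver expression table, and all 31 were among its 18148 symbols. Livers of C57BL/6J mice had been profiled by messenger RNA sequencing in 9 libraries, 3 per group, after 8 weeks of gavage. Treatment mice were given the plasticizer di(2-ethylhexyl) phthalate (DEHP) at 1500 mg/kg/d in corn oil together with green tea polyphenols (GTP) at 70 mg/kg. DEHP mice were given the same phthalate dose in corn oil, and Control mice distilled water. Control mice had no oil, so the phthalate and its vehicle cannot be told apart, and the sources used here do not give the age or sex of the mice. Whether each library is a separate mouse is not stated in the labels; the p-values therefore reflect the spread among these libraries alone, which could be technical.

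Hepatocytes make most of these proteins and secrete them into the blood. Clotting starts when tissue factor meets factor VII, or when the contact system activates factor XI. Both routes converge on factor X, which with its cofactor factor V turns prothrombin (F2) into thrombin, and thrombin cuts fibrinogen into fibrin. Antithrombin, heparin cofactor II and the protein C and protein Z systems restrain the cascade, and plasmin dissolves the clot. Several factors work only after a vitamin K-dependent carboxylation in the liver, carried out by Ggcx with vitamin K recycled by Vkorc1. Fibrinogen is also an acute phase protein, whose genes respond to interleukin 6 and to liver factors such as C/EBP.

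Promoters are shown for the fibrinogen genes and for F11. Those of F7 and F5, which also fell, are not printed. The 3 fibrinogen genes Fgg, Fga and Fgb lie next to each other on mouse chromosome 3 and moved together, and F11, next to Klkb1 on chromosome 8, had the largest fall. Each window runs from 250 bases before to 50 bases after the start annotated by RefSeq on build GRCm38.p6. The submitters' processing notes name mm9, so these positions are RefSeq's and not those of the deposited table. The window of Fga is chr3:83025903-83026202 on the plus strand, that of Fgb chr3:83049814-83050113 on the minus strand, that of Fgg chr3:83007474-83007773 on the plus strand, and that of F11 chr8:45261982-45262281 on the minus strand. Capitals mark matches, on either strand, to the elements listed after the sequences.
Fga: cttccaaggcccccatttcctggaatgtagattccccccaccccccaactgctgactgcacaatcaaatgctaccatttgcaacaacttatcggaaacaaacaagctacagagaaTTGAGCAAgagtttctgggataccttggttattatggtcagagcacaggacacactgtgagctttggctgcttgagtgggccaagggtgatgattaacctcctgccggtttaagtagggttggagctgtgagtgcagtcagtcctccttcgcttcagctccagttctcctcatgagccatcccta
Fgb: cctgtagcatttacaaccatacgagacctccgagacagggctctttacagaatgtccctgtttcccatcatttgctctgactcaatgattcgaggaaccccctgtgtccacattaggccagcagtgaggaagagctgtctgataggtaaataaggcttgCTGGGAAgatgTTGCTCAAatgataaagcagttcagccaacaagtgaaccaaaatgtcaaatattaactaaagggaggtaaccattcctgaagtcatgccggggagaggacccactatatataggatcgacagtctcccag
Fgg: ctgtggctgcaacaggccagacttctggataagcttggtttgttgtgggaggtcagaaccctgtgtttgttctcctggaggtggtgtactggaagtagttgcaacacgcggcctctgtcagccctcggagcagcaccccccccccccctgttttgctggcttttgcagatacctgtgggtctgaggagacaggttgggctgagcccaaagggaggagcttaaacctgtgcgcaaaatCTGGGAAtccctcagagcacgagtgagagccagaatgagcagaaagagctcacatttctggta
F11: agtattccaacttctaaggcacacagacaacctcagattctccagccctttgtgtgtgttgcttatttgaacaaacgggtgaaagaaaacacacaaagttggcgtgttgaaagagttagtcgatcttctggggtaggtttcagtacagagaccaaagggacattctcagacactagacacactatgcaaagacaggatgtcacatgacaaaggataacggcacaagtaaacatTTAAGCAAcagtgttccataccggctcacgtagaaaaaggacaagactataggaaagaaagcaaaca

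The search covered 25 windows of 24 members. The C/EBP letters TTGCNNAA were found in 9 of these windows, those of Fga, Fgb, F11, Klkb1, F9, Serpinc1, Cpb2, Hrg and Ggcx, against 10.8% of all 32851 windows in the RefSeq table. The interleukin 6 response letters CTGGGAA were found in 5 windows, of Fgb, Fgg, F9, Tfpi and Vtn, against 11.1% of all windows. In Fgb the interleukin 6 letters begin at -91 and the C/EBP letters at -80 from the annotated start. No marked matches overlapped each other in the 4 windows shown. The HNF4 letters CAAAGTCCA, the nuclear receptor repeat DR1 and the D-box letters TTATGNAA were found in 0 of the 25 windows, against 0.475%, 0.0396% and 3.38% of all windows. The E-box letters CACGTG were found in 1, that of Tfpi, against 7.15%. The windows of F7 and F5 held none of these letters. A match is a description of the sequence and not a measured binding site.

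Values are the authors' deposited expression values, whose unit is not stated. From their range they appear to be scaled for depth and transcript length. Levels can be compared between genes only if that holds. Absolute depth is unknown. Library totals were 796639 ± 6607 in Treatment, 843344 ± 28596 in DEHP and 845003 ± 22092 in Control livers (SD, n = 3). The major urinary protein (Mup) genes took 8.41% ± 2.79 of the total in Treatment livers, 5.49% ± 3.06 in DEHP livers and 18.8% ± 2.36 in Control livers, which moves the share left for all other genes. The 7 hepatocyte markers in the table summed to between 106821 and 115148 in Treatment, between 114390 and 120080 in DEHP and between 114032 and 118854 in Control livers. In DEHP against Control 1 of these 7 had a log2 fold change above 0, against 7259 of 10388 genes tested. Of the 7, 3 were called, 2 of them lower, against 25.5% of all genes tested in either direction. Their median was -0.21, so the sums hide opposite changes. The 8 adipocyte markers summed to 534.65 and 883.98 in Control replicates 1 and 2, to 2.68 in Control replicate 3 and to at most 3.18 in the other 6 libraries. The sum of the 4 red blood cell markers was also highest in Control replicates 1 and 2, at 1295 and 1216, against at most 827 in the other 7 libraries. Most of that sum was Hba-a1, at 1210 and 1135. Alas2 was at 74.8 and 72.5 there, but also at 70.6 in Control replicate 3. Bpgm was highest in DEHP replicate 2, at 12.7, and Hbb-b1 in DEHP replicate 3, at 80.8. The members called against Control are therefore also given with Control replicate 3 alone, which takes the spread of that 1 library from the other groups.

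The members ranged over several orders of magnitude. Fgb had the highest mean over the 9 libraries, 2067, and ranked 51 of all 18148 symbols, followed by Fgg at 1580.2, the kininogen gene Kng1 at 1348, antithrombin (Serpinc1) at 1338, vitronectin (Vtn) at 1276 and Fga at 1260.3. Plasminogen (Plg) and F2 averaged 702 and 701.0. At the low end were the genes expressed largely by endothelial cells, with Tfpi at 1.98, F8 at 1.32, thrombomodulin (Thbd) at 0.842 and von Willebrand factor (Vwf) at 0.631, and the urokinase gene Plau at 0.472. Together the 31 members took 1.76% ± 0.0774 of the library total in Treatment livers, 1.60% ± 0.164 in DEHP livers and 1.45% ± 0.0590 in Control livers (SD, n = 3).

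**Figure D1:**
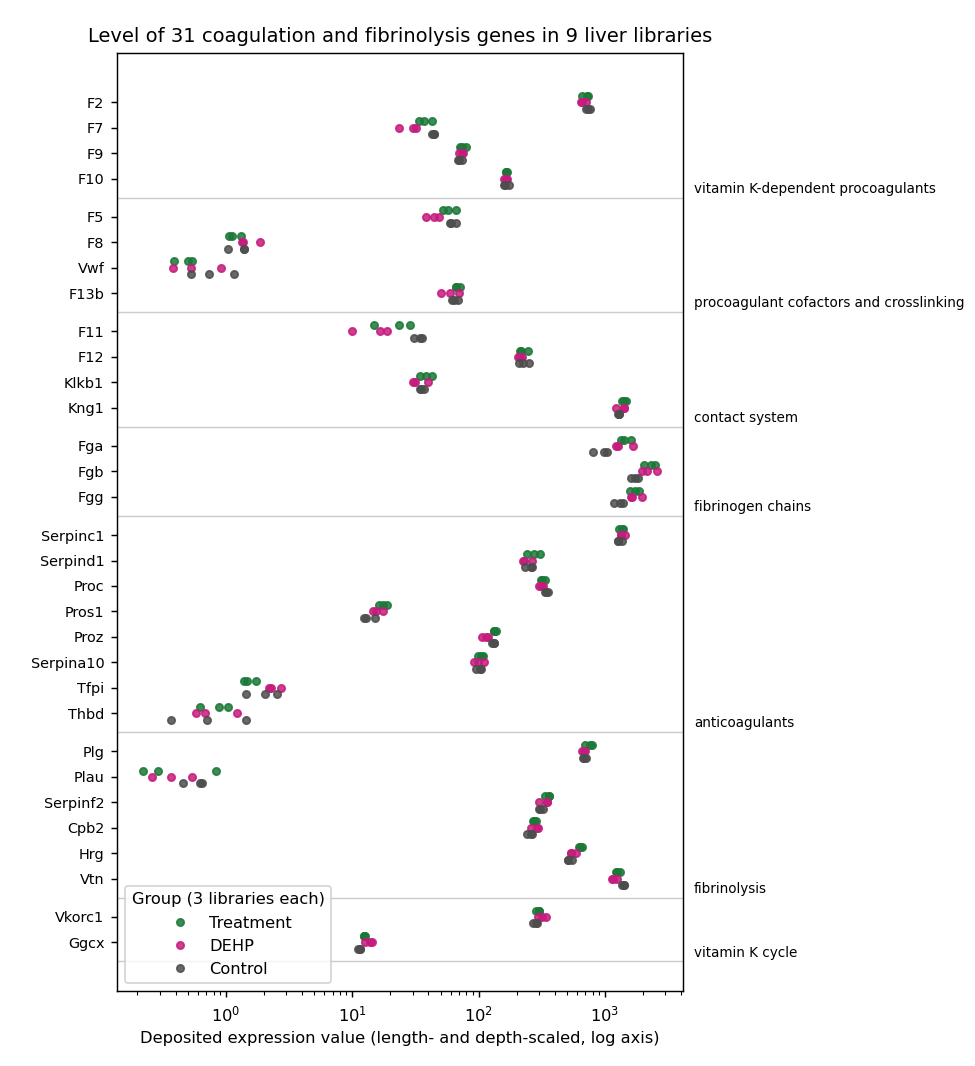
Deposited expression value of each of the 31 members (log axis) in each of 9 libraries, ordered by role, with 1 point per library coloured by group. The fibrinogen points of Treatment and DEHP livers lie right of those of Control livers, and the DEHP points of F7, F5 and F11 lie left of them.

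DEHP against Control asked how the phthalate in its oil altered these transcripts. All 3 fibrinogen chains rose in DEHP livers, while factor VII, factor V and factor XI, which act upstream of fibrinogen in the cascade, fell. Vitronectin, an adhesive plasma protein that binds plasminogen activator inhibitor, fell by less, and the carboxylase gene Ggcx rose. The other 21 tested members did not pass. Of the 31 members 29 passed the low-value filter (1 or more in 3 or more libraries), and Vwf and Plau did not. With limma, at an adjusted p below 0.05 (Benjamini-Hochberg over 10388 genes), 4 members (13.8%) were called higher and 4 (13.8%) lower, against 21.6% and 3.91% of all genes tested. At an unadjusted p below 0.05 there were 10 members, 5 in each direction, against 38.0% of all genes tested. The DEHP libraries lay above every Control library for 5 members and below for 6, against 33.8% and 7.65% of all genes tested. The median log2 fold change was 0.01 over the tested members and 0.12 over all genes.

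The fibrinogen chains were read from abundant transcripts. Fga, the alpha chain, was at 1657, 1268 and 1232 in DEHP livers and at 1034, 989 and 801 in Control livers, and the groups did not overlap. Its fold was 1.47, a log2 fold change of 0.55 (SE 0.14, limma adjusted p = 0.0159). Fgb, the beta chain, was at 2569, 2154 and 1951 in DEHP livers and at 1820.01, 1715 and 1592 in Control livers, with a fold of 1.30 (log2 0.37, SE 0.12, limma adjusted p = 0.0406). Fgg, the gamma chain, was at 1959, 1598 and 1628 in DEHP livers and at 1377, 1311 and 1175 in Control livers, with a fold of 1.34 (log2 0.42, SE 0.11, limma adjusted p = 0.0173). In all 3 genes DEHP replicate 1 was the highest library and Control replicate 3 the lowest. In this tissue, fewer cells of a type and less RNA per cell cannot be told apart.

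The fibrinogen calls depended on scaling. Every fold change stayed above 0 in the 19 other settings tried, but the call of Fga was kept in 15 of them, that of Fgg in 13 and that of Fgb in 7. After rescaling without the Mup genes the log2 fold changes were 0.34, 0.16 and 0.21 for Fga, Fgb and Fgg, and none was called (limma adjusted p = 0.140, 0.417 and 0.244). With Control replicate 3 alone they were 0.78, 0.47 and 0.55 (limma adjusted p = 0.0557, 0.152 and 0.0852). Over the 19 settings adjusted p ranged from 0.00772 to 0.140 for Fga, from 0.0275 to 0.417 for Fgb and from 0.0134 to 0.427 for Fgg. Among single libraries, leaving out Control replicate 3 ended the calls of Fga (limma adjusted p = 0.0655) and Fgg (0.0727), and leaving out DEHP replicate 1 ended that of Fgg (0.0515). The call of Fgb was lost without any 1 of Control replicates 1, 2 and 3, DEHP replicates 1 and 2 and Treatment replicate 3, with adjusted p over the 9 such fits between 0.0275 and 0.135.

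Ratios within a library do not depend on a factor that scales all its genes alike, though quantile normalization can alter them. Fga per F2 was 2.35, 1.94 and 1.92 in DEHP livers and 1.47, 1.31 and 1.09 in Control livers. Fgb per F2 was 3.33 ± 0.304 in DEHP and 2.34 ± 0.220 in Control livers, and Fgg per F2 was 2.59 ± 0.171 in DEHP and 1.76 ± 0.180 in Control livers (SD, n = 3). None of these 3 ratios overlapped between the groups. All 3 share the denominator F2, which had a log2 fold change of -0.14 (SE 0.08, limma adjusted p = 0.232). How often ratios of other gene pairs separate was not tested. Between the chains, Fgb per Fgg was 1.29 ± 0.0777 in DEHP and 1.33 ± 0.0235 in Control livers and overlapped. Fga per Fgg was 0.846, 0.794 and 0.757 in DEHP livers and 0.751, 0.755 and 0.681 in Control livers, so the lowest DEHP value lay just above the highest Control value.

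Among procoagulants, F7, the protease that starts clotting with tissue factor, was at 23.6, 31.8 and 30.2 in DEHP livers and at 44.2, 42.5 and 44.5 in Control livers. The fold was 0.655, a log2 fold change of -0.61 (SE 0.12, limma adjusted p = 0.00471). F5, the cofactor of activated factor X, was at 44.1, 48.6 and 38.4 in DEHP livers and at 60.4, 66.3 and 59.1 in Control livers, with a fold of 0.708 (log2 -0.50, SE 0.11, limma adjusted p = 0.00879). Every DEHP library lay below every Control library for both genes. Each was called in 18 of the 19 other settings, with log2 fold changes between -0.83 and -0.48 for F7 and between -0.72 and -0.41 for F5. The exception was Control replicate 3 alone, at -0.63 for F7 (limma adjusted p = 0.0800) and -0.43 for F5 (limma adjusted p = 0.147), where adjusted p over the settings otherwise reached down to 0.00232 and 0.00413. Leaving out any single library ended neither call.

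F7 lies beside F10 and Proz on chromosome 8. Neither neighbour passed, though Proz, described with the anticoagulants, was lower in every DEHP than in every Control library. F10, the protease at which both routes meet, was at 163.7 ± 5.35 in DEHP and 164.7 ± 7.86 in Control livers (SD, n = 3), and F7 per F10 was 0.149, 0.188 and 0.184 in DEHP livers against 0.274, 0.267 and 0.256 in Control livers. F2 was at 667 ± 33.6 in DEHP and 732 ± 27.0 in Control livers, and F9, factor IX, at 73.0 ± 2.91 in DEHP and 70.8 ± 2.82 in Control livers (SD, n = 3). F13b, the carrier subunit of the fibrin-crosslinking factor XIII, was at 59.97 ± 9.53 in DEHP and 64.6 ± 3.53 in Control livers. F8, the cofactor of factor IX, was at 1.52 ± 0.283 in DEHP and 1.28 ± 0.196 in Control livers. None of these 5 passed, with limma adjusted p from 0.232 for F2 to 0.945 for F10.

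In the contact system F11, the zymogen that activates factor IX, had the largest fall of the 29 tested members. It was at 9.88, 18.9 and 16.4 in DEHP livers and at 35.5, 34.5 and 30.6 in Control livers, and the groups did not overlap. The fold was 0.452, a log2 fold change of -1.15 (SE 0.27, limma adjusted p = 0.0168). The call was kept in 16 of 19 other settings and lost with the replicate number as a block (limma adjusted p = 0.0514), without Control replicate 1 (0.0586) and with Control replicate 3 alone (-1.02, 0.180), against a lowest of 0.00707. Klkb1, plasma prekallikrein, which lies next to F11, was at 33.9 ± 5.19 in DEHP and 35.3 ± 1.37 in Control livers (SD, n = 3). F11 per Klkb1 was 0.326, 0.474 and 0.523 in DEHP livers and 1.04, 0.936 and 0.877 in Control livers. F12, which starts the contact system, was at 212 ± 8.70 in DEHP and 228 ± 20.1 in Control livers. Kng1, the kininogen that carries prekallikrein and factor XI, was at 1348 ± 114 in DEHP and 1276 ± 18.4 in Control livers. Neither passed (limma adjusted p = 0.430 and 0.543). Kng1 has a near copy, Kng2, and the sources used here do not say how reads were split between them.

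The library with the least F11 and F7 in each phthalate group was also the one with the most macrophage transcripts. In DEHP replicate 1, with F11 at 9.88 and F7 at 23.6, the 8 Kupffer cell markers summed to 110.73, against 74.41 and 90.48 in DEHP replicates 2 and 3. In Treatment replicate 2, with F11 at 14.8 and F7 at 33.8, they summed to 116.37, against 70.56 and 65.51 in Treatment replicates 1 and 3. Control sums lay between 57.84 and 66.32, and there F11 ran the other way. Control replicate 1, with the highest sum, had the most F11, at 35.5. Control replicate 3, with the lowest sum, had the least F11, at 30.6, and the most F7, at 44.5. All 8 markers had a log2 fold change above 0 in DEHP against Control, against 7259 of 10388 genes tested. The values of Marco and Timd4 were only 0.02 and 0.01. Of the 8 markers 1 was called, as higher, against 21.6% of all genes tested. DEHP replicate 1 and Treatment replicate 2 also had the lowest Mup share of their groups, at 2.37% and 6.53%. F5 was lowest in DEHP replicate 3, at 38.4, and in Treatment replicate 2, at 52.6. The part of macrophage content and of the Mup share in the result was not tested.

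**Figure D2:**
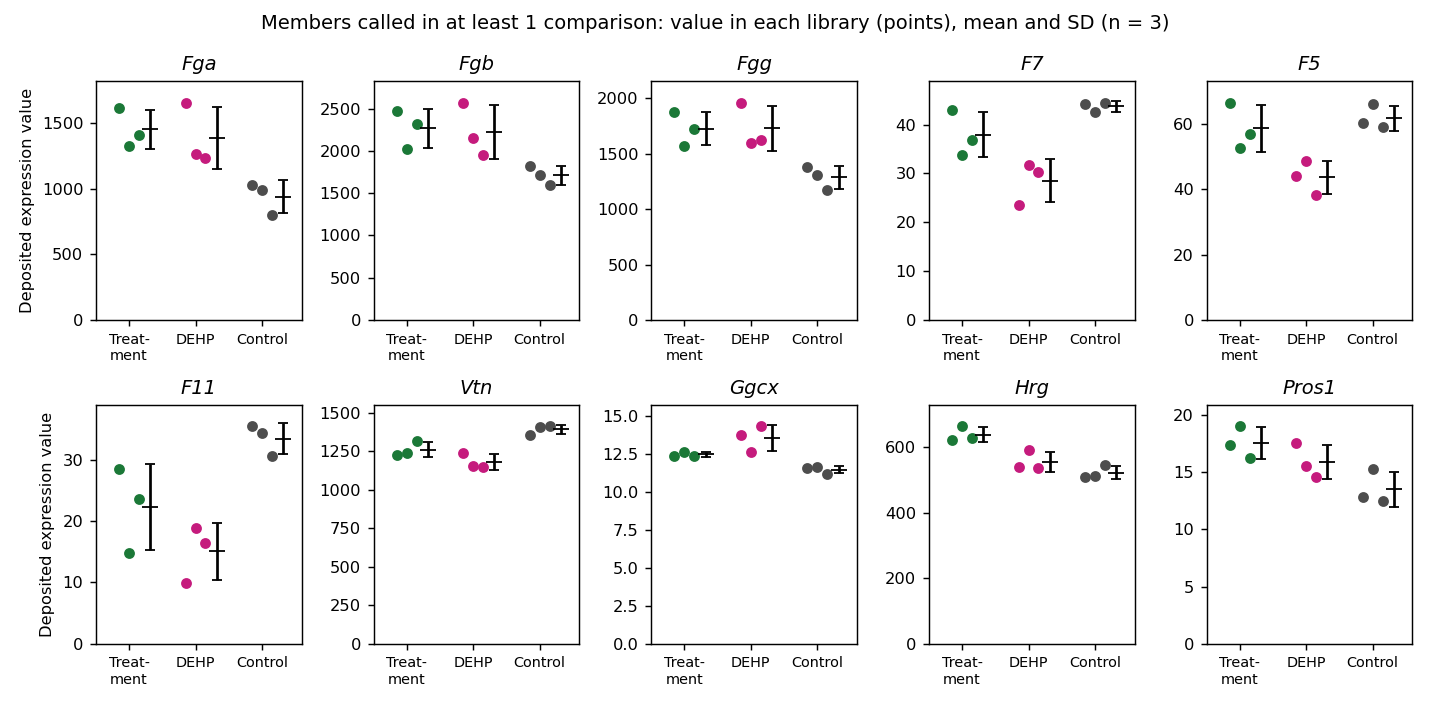
Deposited expression value (vertical axis from 0) in each library for the 10 members called in at least 1 comparison, with the mean and SD beside the points (n = 3). Fga, Fgb and Fgg sit higher in Treatment and DEHP than in Control livers. The means of F7, F5 and F11 are lowest in DEHP livers, though F11 overlaps between Treatment and DEHP livers.

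No anticoagulant gene passed in DEHP against Control. Proz, protein Z, came nearest, at 106.2, 119 and 114 in DEHP livers and at 128, 132 and 131 in Control livers, without overlap. Its log2 fold change was -0.20 (SE 0.07, limma adjusted p = 0.0543), and it was called in 4 other settings, among them without DEHP replicate 2 (-0.24, 0.0477), after quantile normalization (-0.50, 0.00156) and after rescaling without the Mup genes (-0.42, 0.00345), with a highest of 0.259 over all 19. Proc, protein C, was at 310.4 ± 10.2 in DEHP and 342 ± 9.65 in Control livers (SD, n = 3), also without overlap (limma adjusted p = 0.175). Its cofactor Pros1 was at 15.9 ± 1.51 in DEHP and 13.5 ± 1.52 in Control livers (limma adjusted p = 0.135). Serpinc1, antithrombin, was at 1376 ± 58.9 in DEHP and 1295 ± 49.8 in Control livers (limma adjusted p = 0.438). Antithrombin per prothrombin was 2.05, 2.05 and 2.10 in DEHP livers and 1.79, 1.68 and 1.84 in Control livers, so this ratio did not overlap. Serpind1, heparin cofactor II, was at 240 ± 22.2 in DEHP and 252 ± 18.3 in Control livers. Serpina10, the inhibitor that works with protein Z, was at 100.1 ± 9.58 in DEHP and 100.1 ± 4.56 in Control livers.

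In fibrinolysis only Vtn was called among the 5 tested genes. It was at 1237, 1151 and 1146 in DEHP livers and at 1353, 1408 and 1410.02 in Control livers, a fold of 0.847 (log2 -0.24, SE 0.07, limma adjusted p = 0.0371). The direction held in all 19 other settings, between -0.53 and -0.22, and the call in 10. It was lost without any 1 of Control replicates 1, 2 and 3, DEHP replicates 2 and 3 and Treatment replicate 3, with adjusted p over the 9 such fits between 0.0334 and 0.106, and with Control replicate 3 alone (log2 -0.26, limma adjusted p = 0.221). Plg was at 676 ± 17.7 in DEHP and 687 ± 18.2 in Control livers (SD, n = 3). Its inhibitor Serpinf2, antiplasmin, was at 331 ± 25.4 in DEHP and 308 ± 12.02 in Control livers. Cpb2, a carboxypeptidase that shields fibrin from plasmin, was at 281 ± 17.3 in DEHP and 256 ± 11.6 in Control livers. Hrg, the histidine-rich glycoprotein that binds heparin and plasminogen, was at 555 ± 30.8 in DEHP and 522 ± 20.2 in Control livers. None of the 4 passed, with limma adjusted p from 0.219 for Cpb2 to 0.853 for Plg. Plau was at most 0.54 in DEHP and 0.65 in Control livers.

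In the vitamin K cycle, Ggcx was at 13.7, 12.6 and 14.3 in DEHP livers and at 11.6, 11.6 and 11.2 in Control livers, a fold of 1.17 (log2 0.22, SE 0.07, limma adjusted p = 0.0417). This call was kept in 4 of 19 other settings. The log2 fold change was 0.02 (limma adjusted p = 0.847) after rescaling without the Mup genes. Leaving out any 1 library other than DEHP replicate 2 ended the call, with adjusted p over the 9 fits between 0.0301 and 0.128, and with Control replicate 3 alone it was not called (log2 0.25, limma adjusted p = 0.177). Vkorc1, the target of warfarin, was at 294, 339 and 317 in DEHP livers and at 283, 289 and 272 in Control livers, without overlap, and did not pass (log2 0.17, SE 0.08, limma adjusted p = 0.130).

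The endothelial members were near the limit of the filter and varied between libraries of 1 group. Thbd, the thrombin receptor that switches on protein C, was at 0.68, 0.58 and 1.22 in DEHP livers and at 0.71, 1.45 and 0.37 in Control livers. Vwf, which carries factor VIII, was at 0.53, 0.38 and 0.91 in DEHP livers and at 0.74, 1.16 and 0.53 in Control livers. Both were highest in DEHP replicate 3 and Control replicate 2, the libraries where the 12 endothelial markers summed highest in their groups, at 134.59 and 121.97. Tfpi, the inhibitor of the tissue factor route, was also highest there, at 2.71 and 2.56. In Treatment livers the endothelial markers summed highest in replicate 1, at 100.14, against 86.17 and 93.37 in replicates 2 and 3. Thbd, Vwf and Tfpi were not highest there. In Treatment replicates 1, 2 and 3 Thbd was at 0.89, 1.05 and 0.63, and Vwf at 0.5, 0.39 and 0.54. Tfpi was at 1.38, 1.48 and 1.74. Whether endothelial content accounts for these values was not tested.

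The split of calls moved with scaling across the set as it did across all genes. The counts of members called higher and lower were 4 and 4, against 2248 and 406 of all genes. They were 0 and 10 after quantile normalization (922 and 833 of all genes), 0 and 9 after rescaling without the Mup genes (804 and 996), 1 and 5 with each library centred on its median gene (1271 and 736), 2 and 3 with totals made equal (1922 and 330), and 0 and 0 with Control replicate 3 alone (677 and 80). The median gene moved to -0.00, -0.06 and 0.01 on the log2 scale in the first 3 of these. Under quantile normalization and the scaling without Mup genes, F2, F10, F12, Proc and Proz were also called lower. Leaving out 1 library gave between 0 and 3 members higher, with 0 without Control replicate 3, 1 without DEHP replicate 1, and 2 without Control replicate 1, Control replicate 2 or Treatment replicate 3. It gave between 2 and 4 members lower, with 2 without Control replicate 1. The 10157 tested genes with a GENCODE length were ranked by length in 4 equal bins. In DEHP against Control the median log2 fold change was 0.21 in the shortest bin (up to 1188 bases) and 0.05 in the longest (from 3232 bases). These medians were 0.14 and 0.10 in Treatment against Control, and in the opposite order, -0.09 and 0.05, in Treatment against DEHP. The median transcript length was 1859 bases for F7, 2240 for F11 and 7430 for F5, and between 1718 and 3810 for the fibrinogen chains; the part of length in these results was not tested.

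**Figure D3:**
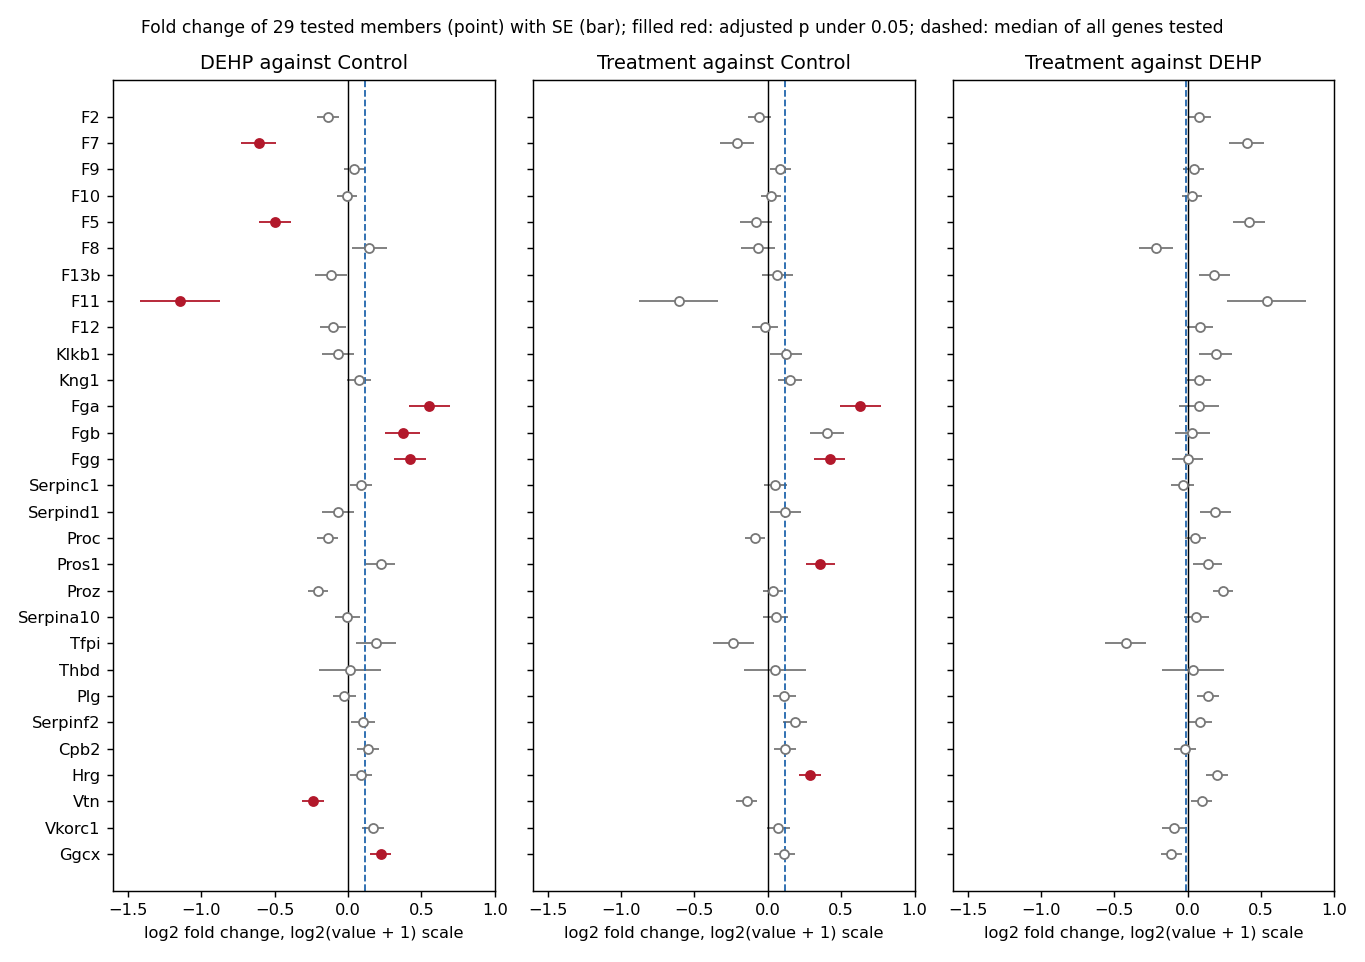
Log2 fold change of the 29 tested members on the log2(value + 1) scale with its SE, in DEHP against Control, Treatment against Control and Treatment against DEHP; filled red points had an adjusted p below 0.05, and the dashed line is the median of all genes tested. The fibrinogen chains lie right of 0 in both comparisons with Control, and F7, F5 and F11 have the lowest values in DEHP against Control; no point is filled in Treatment against DEHP.

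Treatment against Control asked what differed from water when the polyphenols were given with the phthalate. The fibrinogen genes Fga and Fgg were higher, together with Hrg and Pros1, while Fgb, F7, F5 and F11 did not pass. With limma 4 of 29 members were called higher and 0 lower, against 9.68% and 0.76% of all genes tested. At an unadjusted p below 0.05 there were 6 members higher and 0 lower, against 28.7% of all genes tested in either direction, and limma without trend and robust estimates called 3 higher and 0 lower. The median log2 fold change was 0.07 over the tested members and 0.11 over all genes.

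Fga was at 1620.2, 1329.8 and 1410.3 in Treatment livers, against 1034, 989 and 801 in Control livers, a fold of 1.55 (log2 0.63, SE 0.14, limma adjusted p = 0.0236). Fgg was at 1873, 1573 and 1727 in Treatment livers, against 1377, 1311 and 1175 in Control livers, a fold of 1.34 (log2 0.42, SE 0.11, limma adjusted p = 0.0384). Fgb was at 2466, 2017 and 2315 in Treatment livers, against 1820.01, 1715 and 1592 in Control livers, and narrowly did not pass (log2 0.40, SE 0.12, limma adjusted p = 0.0537), though it did in 4 of 19 other settings. No chain overlapped between the groups. Fga per Fgg was 0.865, 0.846 and 0.817 in Treatment livers and 0.751, 0.755 and 0.681 in Control livers. These values rest on the same Control libraries as those of DEHP against Control.

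Hrg was at 622, 663 and 628 in Treatment livers and at 509.6, 511 and 545 in Control livers, a fold of 1.22 (log2 0.29, SE 0.07, limma adjusted p = 0.0386). Pros1, the cofactor of protein C, was at 17.4, 19.0 and 16.3 in Treatment livers and at 12.8, 15.2 and 12.4 in Control livers, a fold of 1.28 (log2 0.36, SE 0.10, limma adjusted p = 0.0492). Every Treatment library lay above every Control library for both. Of the 19 other settings, the calls of Fga, Fgg, Hrg and Pros1 were kept in 9, 8, 8 and 4, all with folds in the same direction. With Control replicate 3 alone, and after rescaling without the Mup genes, 0 members were called, and after rescaling to equal totals 6 were. Leaving out 1 library gave between 0 and 5 members higher. There were 0 without Control replicate 1, Control replicate 3, Treatment replicate 2 or Treatment replicate 3, 1 without Control replicate 2 and 2 without Treatment replicate 1. Over those 9 fits adjusted p reached 0.0877 for Fga, 0.131 for Fgg, 0.129 for Hrg and 0.164 for Pros1. The count over all genes, 1006 higher, likewise became 216 without Control replicate 3, 224 without Treatment replicate 2, 245 without Control replicate 1, 323 without Treatment replicate 3 and 436 without Control replicate 2.

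F7 was at 42.9, 33.8 and 36.9 in Treatment livers, against 43.7 ± 1.06 in Control livers (SD, n = 3), and overlapped (log2 -0.21, SE 0.12, limma adjusted p = 0.269). F5 was at 66.6, 52.6 and 57.0 in Treatment livers, against 61.9 ± 3.83 in Control livers (log2 -0.08, SE 0.11, limma adjusted p = 0.665). F11 was at 28.6, 14.8 and 23.6 in Treatment livers, against 33.5 ± 2.58 in Control livers, and every Treatment library lay below every Control library (log2 -0.61, SE 0.27, limma adjusted p = 0.183). Vtn was at 1258 ± 48.4 in Treatment and 1390.3 ± 32.4 in Control livers, also without overlap (log2 -0.14, SE 0.07, limma adjusted p = 0.226). Ggcx was at 12.4 ± 0.156 in Treatment and 11.4 ± 0.227 in Control livers (limma adjusted p = 0.327). In all, 10 tested members were above every Control library and 2 below, against 31.8% and 4.29% of all genes tested.

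Treatment against DEHP asked what the polyphenols altered in mice given the phthalate. No member passed: limma called 0 of 29 members higher and 0 lower, against 0.0% of all genes tested, and 0 members in each of the 19 other settings, limma without trend and robust estimates included. At an unadjusted p below 0.05 there were 5 members, 4 higher and 1 lower, against 14.7% of all genes tested. The libraries did not overlap for 4 members higher, F7, F5, Proz and Hrg, and for 2 lower, Tfpi and F8, against 8.89% and 10.4% of all genes tested. The median log2 fold change was 0.08 over the tested members and -0.01 over all genes.

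F7 was at 42.9, 33.8 and 36.9 in Treatment livers and at 23.6, 31.8 and 30.2 in DEHP livers (log2 0.40, SE 0.12, limma adjusted p = 0.171). F5 was at 66.6, 52.6 and 57.0 in Treatment livers and at 44.1, 48.6 and 38.4 in DEHP livers (log2 0.42, SE 0.11, limma adjusted p = 0.147). Proz was at 133, 137 and 132 in Treatment livers and at 106.2, 119 and 114 in DEHP livers (log2 0.24, SE 0.07, limma adjusted p = 0.167). Hrg was at 622, 663 and 628 in Treatment livers and at 539, 591 and 536 in DEHP livers (log2 0.20, SE 0.07, limma adjusted p = 0.255). F11 overlapped, at 28.6, 14.8 and 23.6 in Treatment livers and at 9.88, 18.9 and 16.4 in DEHP livers (log2 0.54, SE 0.27, limma adjusted p = 0.410). None of the fibrinogen chains separated: the log2 fold changes were 0.08 (SE 0.14) for Fga, 0.03 (SE 0.12) for Fgb and -0.00 (SE 0.11) for Fgg. These comparisons share the DEHP libraries with DEHP against Control. Over all genes with a length, the median log2 fold change here was -0.09 in the shortest bin and 0.05 in the longest, which holds F5. The part of length in the values of F7 and F5 was not tested.

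Tfpi was at 1.38, 1.48 and 1.74 in Treatment livers and at 2.28, 2.21 and 2.71 in DEHP livers (log2 -0.42, SE 0.14, limma adjusted p = 0.204). F8 was at 1.33, 1.12 and 1.06 in Treatment livers and at 1.37, 1.35 and 1.85 in DEHP livers (log2 -0.21, SE 0.12, limma adjusted p = 0.438). At such levels a pseudocount of 1 understates a fold. The 12 endothelial markers summed to 100.14, 86.17 and 93.37 in Treatment livers and to 105.39, 101.42 and 134.59 in DEHP livers. Of the 12, 1 had a log2 fold change above 0, against 4848 of 10388 genes tested. The part of endothelial content in the values of Tfpi and F8 was not tested. Vwf and Plau were at most 0.54 and 0.83 in Treatment livers.

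**Figure D4:**
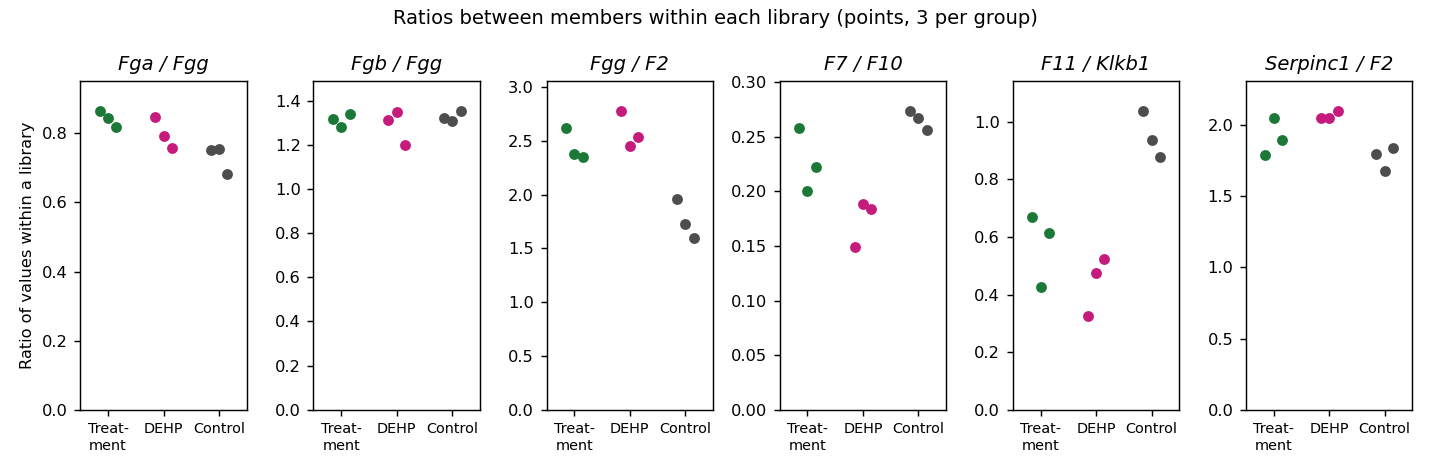
Ratio between the values of a pair of members within each library (vertical axis from 0), 1 point per library, for Treatment, DEHP and Control livers. F7 per F10 and F11 per Klkb1 are below all Control libraries in the 3 DEHP libraries, Fgg per F2 is above them, and Fgb per Fgg overlaps among the 3 groups.

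Of 36 further genes of the pathway 25 were tested, and in DEHP against Control 4 (16%) rose and 4 (16%) fell, against 21.6% and 3.91% of all genes tested. Tfpi2, a relative of the tissue factor pathway inhibitor, was at 54.6, 59.6 and 61.4 in DEHP livers and at 25.8, 23.1 and 25.3 in Control livers (log2 1.21, SE 0.11, limma adjusted p = 0.000233). S100a10, which with annexin A2 forms a plasminogen receptor, was at 336, 295 and 471 in DEHP livers and at 149.9, 117 and 99.5 in Control livers (log2 1.57, SE 0.19, limma adjusted p = 0.000811). Both calls held in all 19 other settings. F2r, the thrombin receptor PAR1, rose by a log2 of 0.48 (SE 0.10), and Fgl1, a fibrinogen-like liver protein, was at 889, 256 and 366 in DEHP livers against 126, 167 and 120.3 in Control livers (log2 1.67, SE 0.49, limma adjusted p = 0.0436). On the log2 scale C4bp fell by 0.59 (SE 0.12), and Hgfac, a protease related to factor XII, by 0.39 (SE 0.11). Lman1, the cargo receptor that carries factors V and VIII out of the endoplasmic reticulum, fell by 0.28 (SE 0.08). Serpine2, a thrombin inhibitor, fell by 1.98 (SE 0.45). The calls of F2r and C4bp held without any single library. Those of Serpine2, Lman1, Hgfac and Fgl1 were lost in 3, 4, 3 and 7 of the 9 fits that left out 1 library, among them DEHP replicate 1 in each case, with adjusted p up to 0.0571, 0.104, 0.0902 and 0.118. With Control replicate 3 alone the calls of Tfpi2 and S100a10 held and those of the other 6 did not, with adjusted p from 0.0844 for F2r to 0.304 for Lman1. F3, tissue factor, Anxa2 and Pzp came next and did not pass (limma adjusted p = 0.0589, 0.0664 and 0.124).

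In Treatment against Control, 3 genes (12%), Tfpi2, S100a10 and F2r, were called higher and Serpine2 lower, against 9.68% and 0.76% of all genes tested. With Control replicate 3 alone none of the 4 was called, with adjusted p from 0.1075 for Tfpi2 to 0.276 for Serpine2. Tfpi2 was at 40.2, 55.4 and 42.7 in Treatment livers, against 25.8, 23.1 and 25.3 in Control livers (log2 0.86, SE 0.11, limma adjusted p = 0.00385). S100a10 was at 193, 229.9 and 215 in Treatment livers, against 149.9, 117 and 99.5 in Control livers (log2 0.81, SE 0.19, limma adjusted p = 0.0313). F2r was at 0.43 (SE 0.10) and Serpine2 at -1.77 (SE 0.45) on the log2 scale. Leaving out 1 library ended the calls of S100a10, F2r and Serpine2 in 4, 5 and 8 of 9 fits, without Control replicates 2 and 3 and Treatment replicates 2 and 3 in each case, with adjusted p up to 0.113, 0.0743 and 0.155. In Treatment against DEHP limma called 0 of the 25, 5 had an unadjusted p below 0.05, against 14.7% of all genes tested, and S100a10 had the smallest p (log2 -0.76, SE 0.19, limma adjusted p = 0.145).

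Of 12 regulators of liver coagulation genes, 3 fell and 1 rose in DEHP against Control, against 3.91% and 21.6% of all genes tested. Nr1h4, the bile acid receptor FXR, was at 53.3, 58.3 and 61.5 in DEHP livers and at 70.3, 80.5 and 91.5 in Control livers (log2 -0.47, SE 0.10, limma adjusted p = 0.00769), a call that held in all 19 other settings. Cebpa, which encodes C/EBP alpha, was at 112, 141 and 118 in DEHP livers and at 172, 172 and 173 in Control livers (log2 -0.48, SE 0.12, limma adjusted p = 0.0162). Onecut1, which encodes HNF6, was at 1.09, 0.89 and 0.91 in DEHP livers and at 10.01, 7.72 and 4.75 in Control livers (log2 -2.06, SE 0.61, limma adjusted p = 0.0476). The calls of Cebpa and Onecut1 were lost in 4 and 7 of the 9 fits that left out 1 library, Control replicates 1 and 3 and DEHP replicates 1 and 3 among them each time, with adjusted p up to 0.0532 and 0.137. Nr0b2, the repressor SHP, rose by 1.95 (SE 0.32, limma adjusted p = 0.0040). With Control replicate 3 alone the call of Nr1h4 held, and those of Nr0b2, Cebpa and Onecut1 did not (limma adjusted p = 0.0809, 0.157 and 0.326). In Treatment against Control Nr0b2 and Foxa2 were called higher, at 1.34 (SE 0.32) and 0.68 (SE 0.18), calls lost in 6 of 9 such fits each, Control replicates 1, 2 and 3 and Treatment replicate 2 among them, with adjusted p up to 0.132 and 0.140, and with Control replicate 3 alone (limma adjusted p = 0.261 and 0.144). In Treatment against DEHP limma called 0 of the 12, and 5 had an unadjusted p below 0.05, against 14.7% of all genes tested. The smallest adjusted p was that of Foxa2 (log2 0.89, SE 0.18, limma adjusted p = 0.122), at 25.0, 28.5 and 18.2 in Treatment livers and 12.4, 10.3 and 14.5 in DEHP livers. Onecut1 was at 12.4, 12.04 and 1.71 in Treatment livers, and of the 9 fits that left out 1 library it was called in that without Treatment replicate 3 (log2 2.75, limma adjusted p = 0.00607).

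Other secreted hepatocyte proteins gave a comparison for the plasma factors. Of 16 in the table, 1 (6.25%) was called higher and 3 (18.75%) lower in DEHP against Control, against 21.6% and 3.91% of all genes tested, and the median log2 fold change was 0.01 over the tested coagulation members and -0.06 over these. Apoa2, an apolipoprotein of high-density lipoprotein, rose by 0.70 (SE 0.09), while the albumin gene Alb fell by 0.40 (SE 0.09) and Ahsg, fetuin A, by 0.46 (SE 0.09), though Ahsg was at 0.20 after quantile normalization. With Control replicate 3 alone Alb and Ahsg were not called (limma adjusted p = 0.191 and 0.138). In Treatment against Control and in Treatment against DEHP limma called 0 of the 16, with 5 and 2 at an unadjusted p below 0.05, against 28.7% and 14.7% of all genes tested.

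**Figure D5:**
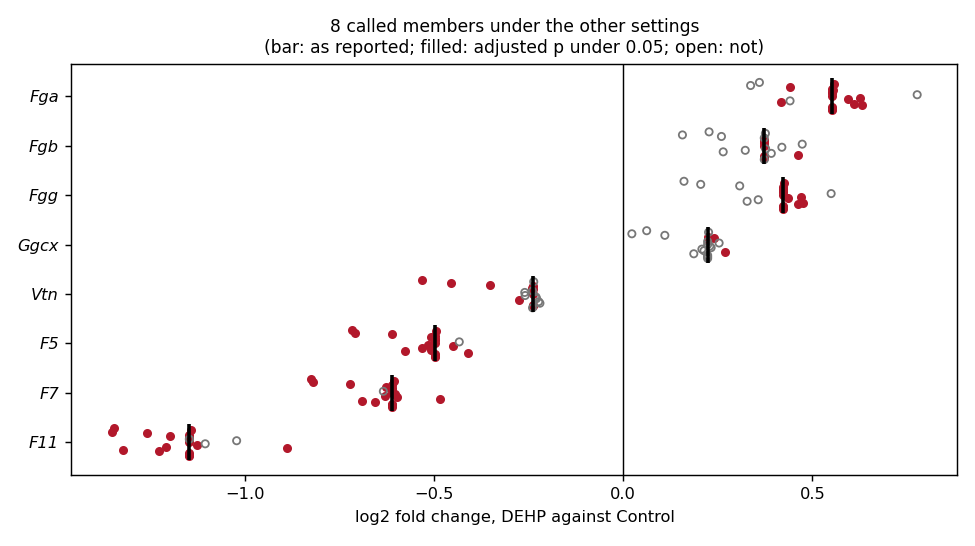
Log2 fold change in DEHP against Control of the 8 called members as reported (black bar) and under 19 other settings (points; filled red where the adjusted p was below 0.05, open where not). No point crosses 0, and F7, F5 and F11 were called in 18, 18 and 16 of the 19.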

How the data were processed

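Per the labels' protocols, poly(A) RNA was bound to oligo(dT) beads, broken up and copied into cDNA from random hexamers. The submitters' processing notes name mm9, CASAVA 1.7 and limma but no role for any of them. Aligner, counting tool and annotation: not given in the sources used here. In each column the deposited table gave 1 signal per symbol and library. Its unit is not stated, and from its values it appears to be of the FPKM or TPM kind. Absolute depth is unknown, so no counting interval could be given.

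Groups came from the sample titles. Values were tested as log2(value + 1), which understates the change of low genes, in 1 limma model (version 3.58.1, R 4.3.3, trend and robust estimates) over all 9 libraries, which was tested on simulated data. A gene needed 1 or more in 3 or more libraries, which left 10388 of 18148. Each comparison was adjusted by Benjamini-Hochberg over these, with a threshold of 0.05 for a call. All 31 members are named, and from other lists the called genes, with up to 3 of the secreted proteins. The members and lists were chosen with earlier results of these data known; 1 regulator and 1 sequence element are not reported here. Alternatives were other scalings, no filter, a pseudocount of 0.1, limma without trend and robust estimates, only the 6 libraries compared, a replicate block, each library left out, and Control replicate 3 alone. Promoter windows came from RefSeq (GRCm38.p6). All 31 members matched RefSeq symbols, and 24 had a window that could be shown.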

Additional observations from a re-analysis of the deposited data

How the results depend on the processing

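Fold changes of the 8 members called in DEHP against Control kept their sign in all 19 other settings. Members called higher and lower there, 4 and 4 as reported, were 0 and 10 after quantile normalization, 0 and 9 after rescaling without the Mup genes, 0 and 0 with Control replicate 3 alone, 1 higher after centring on the median gene and 2 higher after rescaling to equal totals; leaving out 1 library gave between 0 and 3 higher and between 2 and 4 lower. In Treatment against Control the 4 called higher became 0 after quantile normalization, rescaling without the Mup genes, centring, no filter or Control replicate 3 alone, and between 0 and 5 when 1 library was left out.

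All genes called higher and lower in DEHP against Control, 2248 and 406, were 922 and 833 after quantile normalization, 804 and 996 without the Mup genes, 1271 and 736 after centring, 677 and 80 with Control replicate 3 alone, and from 1471 to 2317 and from 232 to 410 without 1 library (lowest without Control replicate 1, and 233 lower without Control replicate 2). In Treatment against Control, 1006 and 79 became 172 higher after quantile normalization, 298 without the Mup genes, 180 after centring, 1948 after equal totals, 511 and 48 with no filter, 7 and 3 with Control replicate 3 alone, and from 216 to 1081 and from 30 to 103 without 1 library. In Treatment against DEHP, 0 and 0 became 37 and 1 without the Mup genes, 5 higher after equal totals, 1 higher with only the 6 libraries compared or Control replicate 3 alone, and up to 34 and 52 without 1 library (DEHP replicate 2). Of 2565 values of named genes in other settings, 120 that were called in neither fit changed sign. Ahsg, called lower in DEHP against Control, was at 0.20 after quantile normalization (adjusted p = 0.210). The causes were not tested.

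The labels do not say whether replicate numbers pair the samples. Deviations of same-numbered libraries from their group means correlated between -0.263 and 0.17 across genes. Those of differently numbered libraries correlated between -0.139 and 0.258. Whether same-numbered libraries share a batch was not tested. With the replicate block, 3 members were called higher and 2 lower in DEHP against Control, where F11 and Vtn were lost from the lower calls, 2 higher in Treatment against Control, and 0 in Treatment against DEHP; all genes called in Treatment against Control were 531 and 47.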
